A study of Mus musculus with 19 samples.

Results

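Microglia of the recipient's own brain were compared between mice with graft-versus-host disease (GVHD) and transplanted mice without it. The comparison used 7 of the 19 samples of the series, chosen by their titles: 4 libraries of sorted host microglia from GVHD mice and 3 libraries of sorted host microglia from control mice, called TCD. All recipients had received 1100 cGy of total-body irradiation in split doses and 5000000 bone marrow cells depleted of T cells. GVHD mice also received 500000 splenic T cells, and TCD mice received none. Cells were sorted by flow cytometry on day 70 after transplantation, so every host library, control or not, came from an irradiated and transplanted animal. Libraries of donor-derived macrophages from GVHD brains (n = 6) gave levels to set beside those of the host cells and shared the estimate of the spread. The 19 samples hold no library of donor macrophages from TCD mice. Mouse strain, age and the sort gates are not given in the sources used here. The same holds for how many animals made up a library. If the libraries were not from separate animals, the p-values measure only the spread between these samples, which may be technical.

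Microglia are the resident macrophages of brain tissue, and in the resting brain they carry little MHC class II on their surface. Interferon-gamma, a cytokine of activated T cells, induces Ciita, the class II transactivator, which in turn switches on the class II genes through proteins bound at the X box and Y box of their promoters. Nlrc5, a relative of Ciita, acts in the same way on MHC class I genes. Interferon-gamma also induces the guanylate-binding proteins and immunity-related GTPases, which defend cells against intracellular microbes, and the chemokines Cxcl9 and Cxcl10, which attract T cells.

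Of 13086 tested genes, 12 were higher and 2 lower in GVHD host than in TCD host microglia (adjusted p under 0.05, limma with Benjamini-Hochberg adjustment over all tested genes). That was 0.0917% of the tested genes in the higher direction and 0.0153% in the lower, or 0.107% in all. The genes that rose were H2-Eb1, H2-Aa, H2-Ab1, Cd74 and Ciita of the class II pathway, H2-D1, H2-M2 and Nlrc5 of the class I pathway, the guanylate-binding protein gene Gbp8, and Cpq, Aldh1l1 and Spock1. Thbs2 and Serpinf1 fell. In all 14 genes the values of the 4 GVHD host libraries did not overlap those of the 3 TCD host libraries, as held for 6.55% of tested genes (3.57% with GVHD host higher and 2.98% with it lower). At an unadjusted p under 0.05 there were 897 genes, 553 higher (4.23%) and 344 lower (2.63%). These calls drew on the spread among all 13 sorted libraries. In a limma fit of the 7 host libraries alone no gene was called, 1048 genes (8.01%) had an unadjusted p under 0.05, and the lowest adjusted p was 0.126, for Gbp8. In the fit of all sorted libraries, leaving out GVHD host library 1, 2 or 4 left 5 genes higher and 1 lower each time. Leaving out GVHD host library 3 gave 23 and 5, TCD host library 2 gave 7 and 0, and TCD host library 3 gave 19 and 3.

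**Figure D1:**
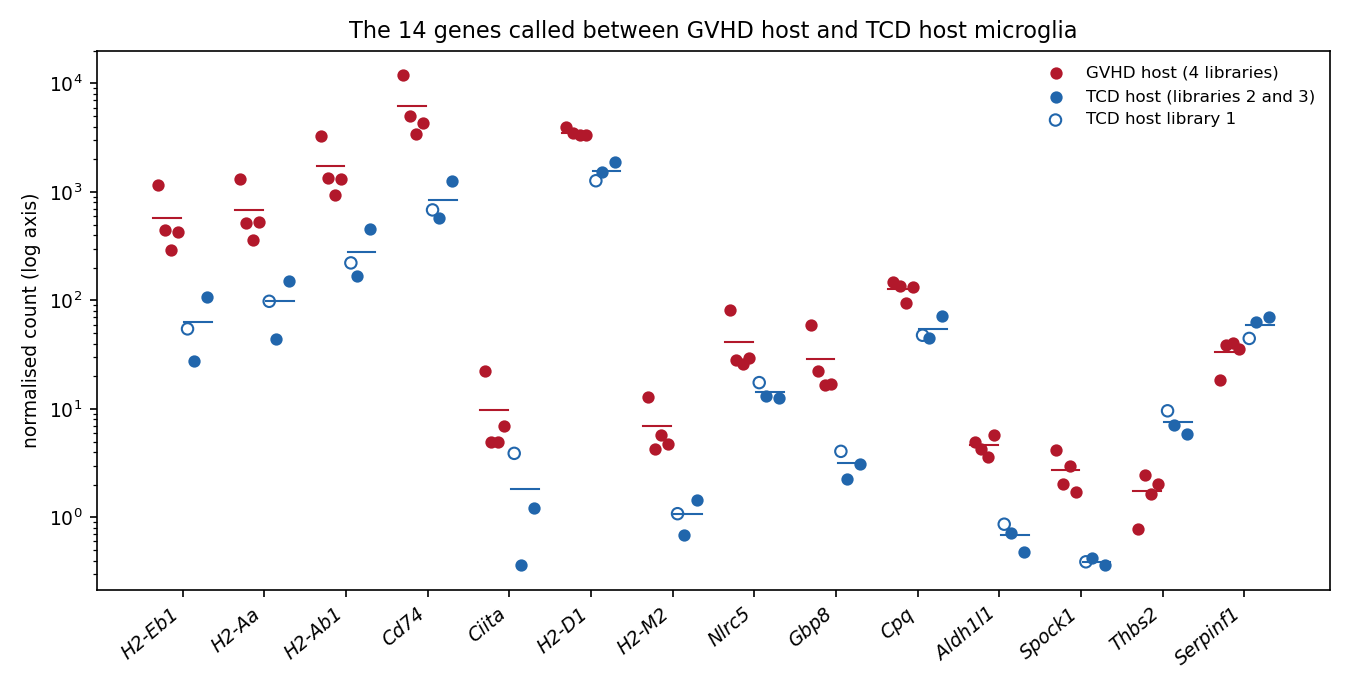
Normalised counts, on a log axis, of the 14 called genes in each host library. Points are libraries, horizontal lines are group means, and the open circle is TCD host library 1; in each gene the 2 groups do not overlap, with GVHD host microglia higher in 12 genes and lower in Thbs2 and Serpinf1.

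Library 1 of the TCD host group stood apart from the rest. Its Spearman correlation with the other host libraries, across tested genes, was 0.921 to 0.936, against 0.965 to 0.988 among the other 6, and its description carries the word Syn where those of the other TCD libraries carry TCD. It lay at -75.1 on the first principal component of the host libraries, which held 50.1% of their variance, and it was the lowest of the 7. Titles also carry an API number, whose meaning is not given: library 1 of each host group has API_183 and the other 5 have API_197. The number was a covariate of the model, and results are given below with and without TCD host library 1. Without it, 9 genes were higher (0.0688% of those tested) and 2 lower, and 8 of the 14 calls were kept. The estimated depth of the host libraries was 7901523 to 22827288 reads.

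Among the called class II genes, promoter windows (RefSeq, GRCm38.p6) are reported here for H2-Eb1 and H2-Aa. Both are shown because they hold the X box and Y box cores through which Ciita is known to act. The window runs from 250 bases before to 50 after the start, printed 5′ to 3′ on the gene's strand. Capitals mark the X box core CTNGCAAC and the Y box core CTGATTGG on either strand, letters that were chosen with these promoters in view. Both marks in the H2-D1 window lie on the opposite strand, so they are printed as the reverse complements of the cores. The window of H2-D1, a class I gene that rose, is given beside them as a comparison. It lies at chr17:35262844-35263143, plus strand, that of H2-Eb1 at chr17:34305617-34305916, plus strand, and that of H2-Aa at chr17:34287774-34288073, minus strand.
H2-Eb1: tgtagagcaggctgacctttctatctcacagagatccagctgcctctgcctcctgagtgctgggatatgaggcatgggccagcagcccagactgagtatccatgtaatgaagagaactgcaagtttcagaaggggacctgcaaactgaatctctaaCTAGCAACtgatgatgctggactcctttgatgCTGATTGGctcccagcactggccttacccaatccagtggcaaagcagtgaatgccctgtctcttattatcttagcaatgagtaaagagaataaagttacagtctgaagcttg
H2-Aa: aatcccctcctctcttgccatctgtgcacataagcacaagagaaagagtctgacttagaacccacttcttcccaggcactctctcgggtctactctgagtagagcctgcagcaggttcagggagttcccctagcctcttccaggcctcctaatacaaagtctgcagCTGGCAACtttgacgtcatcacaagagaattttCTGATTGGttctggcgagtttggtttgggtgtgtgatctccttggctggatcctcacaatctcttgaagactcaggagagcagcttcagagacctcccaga
H2-D1: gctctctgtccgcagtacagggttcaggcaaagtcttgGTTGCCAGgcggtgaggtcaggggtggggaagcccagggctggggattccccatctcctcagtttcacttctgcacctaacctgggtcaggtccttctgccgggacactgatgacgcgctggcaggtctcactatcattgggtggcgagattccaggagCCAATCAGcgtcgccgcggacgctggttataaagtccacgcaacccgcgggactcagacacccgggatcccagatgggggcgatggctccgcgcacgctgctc
In H2-Eb1 and H2-Aa the X box core was followed, on the same strand and within 50 bases, by the Y box core. Only 9 of 32851 promoter windows (0.0274%) held that arrangement on either strand. The X box core alone, on either strand, was found in 3.42% of the windows and the Y box core in 4.10%. The Y box core contains ATTGG, the reverse complement of CCAAT, which 37.4% of windows held. The H2-D1 window held a match to each core, but not in that arrangement. Of the 18 class II genes listed, windows of 13 were searched, and H2-Eb1 and H2-Aa were the 2 of these with the arrangement. Windows of 8 of the 14 called genes were searched, and a match describes letters only. Not every gene left out of the search lacked a window.

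The class II chains rose together with their chaperone and their transactivator. H2-Eb1 (chr17:34305867-34316674, plus strand), the beta chain of the I-E molecule, was at normalised counts of 1154, 447, 294 and 426 in GVHD host libraries 1 to 4 and at 54.7, 27.6 and 107 in TCD host libraries 1 to 3. The lowest GVHD host library was thus above the highest TCD host library, and library 1 was the highest of its group. The mean was 580 ± 388 (SD, n = 4) against 63.1 ± 40.5 (SD, n = 3), and the log2 difference on the scale of log2(value + 1) was 3.23 ± 0.45 (SE; limma adjusted p = 0.0134). Without TCD host library 1 the log2 difference was 2.98, with an adjusted p of 0.116.

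H2-Aa and H2-Ab1 encode the alpha and beta chain of the I-A molecule. H2-Aa (chr17:34282744-34287823, minus strand) was at 1329, 522, 358 and 529 in the GVHD host libraries and at 98.2, 44.1 and 151 in the TCD host libraries. H2-Ab1 (chr17:34257689-34269419, plus strand) was at 3294, 1332, 934 and 1310 against 222, 166 and 452. In both genes the order of the libraries within a group was near that of H2-Eb1, with GVHD host library 1 on top and TCD host library 2 at the bottom. The log2 differences were 2.83 ± 0.39 for H2-Aa (adjusted p = 0.0134) and 2.61 ± 0.39 for H2-Ab1 (adjusted p = 0.0226). Without TCD host library 1 they were 2.65 and 2.25, and neither passed the test (adjusted p = 0.0907 and 0.147).

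Cd74, the invariant chain that escorts class II molecules to the compartment where they take up peptide, was at 11913, 4994, 3433 and 4280 in the GVHD host libraries. It was at 683, 579 and 1271 in the TCD host libraries, so the groups were apart by more than the whole spread of the TCD host group. The ratio of the means was 7.29, and the log2 difference was 2.82 ± 0.35 (adjusted p = 0.00873). Cd74 kept its call without TCD host library 1, with a log2 difference of 2.43 (adjusted p = 0.0485).

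Ciita (chr16:10480059-10528418, plus strand) had the second-lowest adjusted p of all genes. Its values were 22.4, 4.99, 4.97 and 6.92 in the GVHD host libraries against 3.89, 0.362 and 1.21 in the TCD host libraries. These correspond to an estimated 574, 79, 78 and 61 reads against 90, 6 and 10. Both libraries with API_183 were the highest of their groups, and the gap between the groups was small beside the spread within them. The log2 difference was 2.02 ± 0.22 (adjusted p = 0.00357), and 1.92 without TCD host library 1 (adjusted p = 0.0318).

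Among all 16 tested genes of the class II list, 5 rose, none fell and 13 had a positive difference, with a median log2 difference of 0.68, against a median of -0.03 and 44.9% positive over all tested genes. The groups did not overlap, GVHD host higher, in 9 of the 16, a state that held for 3.57% of tested genes. Both shares over all tested genes, 44.9% positive and 3.57% apart, also apply to the counts of the lists below. The 4 of these that were not called included H2-DMa (0.80, adjusted p = 0.315) and H2-DMb1 (0.55, adjusted p = 0.296), which encode chains of the DM molecule that loads peptide, and H2-Oa (0.82, adjusted p = 0.174), a chain of its inhibitor DO. Rfx5, Rfxank and Rfxap, the subunits of the complex at the X box, had differences of -0.74, -0.19 and 0.05 and did not pass the test. Without TCD host library 1 the median of the list was 0.51, and 2 of its genes were called.

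On the class I side, 2 genes of antigen presentation rose. H2-D1 (chr17:35262730-35267499, plus strand), a classical class I heavy chain, was at 3935, 3469, 3326 and 3370 in the GVHD host libraries against 1269, 1534 and 1871 in the TCD host libraries. All GVHD host values lay within a narrow band above the controls. The mean was 3525 ± 280 (SD, n = 4) against 1558 ± 302 (SD, n = 3), and the log2 difference was 1.2 ± 0.17 (adjusted p = 0.0134). H2-K1, the other classical heavy chain measured, was at 1666, 1606, 1575 and 1739 against 466, 1204 and 994. Those groups did not overlap either, with TCD host library 1 far below the rest, but the difference of 0.97 ± 0.23 did not pass the test (adjusted p = 0.163) and was 0.57 without that library. B2m, the light chain shared by class I molecules, differed by 0.87 ± 0.33 (adjusted p = 0.605), and by 0.54 without TCD host library 1.

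Nlrc5 (chr8:94434356-94527272, plus strand), the class I transactivator, was at 81.5, 28.0, 25.7 and 29.2 in the GVHD host libraries and at 17.5, 13.3 and 12.6 in the TCD host libraries. GVHD host library 1 was far above the other 3, which lay close together and above all controls. The log2 difference was 1.38 ± 0.19 (adjusted p = 0.0134), and 1.06 without TCD host library 1 (adjusted p = 0.0318). Of the 12 tested genes of class I presentation, 2 rose, H2-D1 and Nlrc5, and all 12 had a positive difference, with a median of 0.44. Tap1, a subunit of the peptide transporter, was at 169, 91.2, 95.9 and 76.9 against 107, 52.0 and 52.6, so that its groups overlapped through TCD host library 1.

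H2-M2 (chr17:37480851-37483552, minus strand), a non-classical class I gene, was at 12.8, 4.27, 5.72 and 4.79 in the GVHD host libraries and at 1.08, 0.694 and 1.46 in the TCD host libraries. The groups were apart, and the log2 difference was 1.89 ± 0.29 (adjusted p = 0.0245), but not past the threshold without TCD host library 1 (1.59, adjusted p = 0.147). It was the 1 called gene of the 15 tested non-classical class I genes. All 15 had a positive difference, and 11 had groups that did not overlap, against 3.57% of all tested genes. Their median was 1.27, and 0.69 without TCD host library 1. H2-T23, which encodes the Qa-1 heavy chain, differed by 1.47 ± 0.28 (adjusted p = 0.0968), and H2-M3, which presents formylated peptides, by 0.89 ± 0.17 (adjusted p = 0.0968). H2-Q6 and H2-Q7 are near-identical, so their separate values are uncertain. H2-Q6 was at 122, 99.6, 92.1 and 105 against 9.93, 42.9 and 44.5. TCD host library 1 was thus far the lowest, and the difference of 1.88 ± 0.38 (adjusted p = 0.116) became 1.14 without that library and passed the test there (adjusted p = 0.0485).

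The immunoproteasome, which cuts peptides for class I molecules, had 5 tested genes, all with a positive difference (median 0.50) and none called. Psmb9, a catalytic subunit, was at 92.1, 84.1, 65.3 and 69.6 against 36, 35.8 and 43.0, and differed by 1.01 ± 0.20 (adjusted p = 0.0968). Psmb8, another catalytic subunit, differed by 0.64 ± 0.23 (adjusted p = 0.529). In both the groups did not overlap.

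Gbp8 (chr5:105014150-105139540, minus strand) had the lowest adjusted p of all tested genes. Its values were 58.8, 22.2, 16.7 and 17.1 in the GVHD host libraries and 4.06, 2.28 and 3.13 in the TCD host libraries. Every GVHD host library was far above every TCD host library. The ratio of means was 9.08, and the log2 difference was 2.74 ± 0.24 (adjusted p = 0.000779). Without TCD host library 1 it was 2.498 (adjusted p = 0.00647), and within the API_197 libraries alone it was 2.41 (adjusted p = 0.0134), the 1 gene called in that subset (0.00764%). Reads of near-identical family members can be split by the counting, which makes values of single guanylate-binding protein genes uncertain.

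All 8 tested guanylate-binding protein genes had a positive difference, but Gbp8 was the 1 that passed the test. All 8 had groups that did not overlap, against 3.57% of all tested genes. Their median was 1.40, and 1.05 without TCD host library 1. Their summed level was 686 to 1304 in the GVHD host libraries and 301 to 444 in the TCD host libraries. Gbp3 was at 128, 97.6, 72.4 and 93.7 against 25.2, 45.7 and 42.7 and differed by 1.37 ± 0.29 (adjusted p = 0.135). Gbp4 was at 96.1, 45.8, 28.7 and 32.1 against 5.36, 12.8 and 12.6. The GVHD host libraries were thus all higher, with a wide spread in both groups, and the difference of 2.17 ± 0.56 had an adjusted p of 0.198 (1.40 without TCD host library 1).

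None of the 13 immunity-related GTPase genes passed the test, while all 13 had a positive difference (median 1.13, and 0.73 without TCD host library 1). In 8 of them the groups did not overlap, against 3.57% of all tested genes. Iigp1, which acts at the vacuole of intracellular parasites, was at 210, 78.0, 61.8 and 76.5 against 9.79, 16.7 and 30.4. Its groups were apart, and its difference of 2.43 ± 0.57 had an adjusted p of 0.161 (1.71 without TCD host library 1). Tgtp2, whose reads can be confused with those of Tgtp1, was at 347, 124, 83.7 and 99.1 against 29.8, 45.5 and 43.0 (1.87 ± 0.49, adjusted p = 0.221, and 1.27 without TCD host library 1).

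Among 19 other genes known to respond to interferon-gamma, none was called and all 19 had a positive difference (median 1.08, and 0.60 without TCD host library 1). In 13 of them the groups did not overlap, against 3.57% of all tested genes. Cxcl9 was at 101, 32.0, 36.5 and 35.6 in the GVHD host libraries and at 1.64, 4.71 and 10.7 in the TCD host libraries. The groups were well apart, yet the spread within the TCD host group was wide, and the difference of 3.10 ± 0.69 did not pass the test (adjusted p = 0.141); without TCD host library 1 it was 2.11. Cxcl10 was at 31.5, 25.3, 27.7 and 26.7 against 5.10, 21.1 and 13.9 (1.16 ± 0.39, adjusted p = 0.478, and 0.62 without TCD host library 1). Il18bp, which binds and blocks interleukin 18, was at 35.3, 15.9, 10.1 and 10.8 against 5.49, 4.59 and 6.16 (1.48 ± 0.30, adjusted p = 0.111). Cd274, the checkpoint ligand PD-L1, was at 27.3, 15.3, 15.4 and 15.7 against 7.31, 8.57 and 5.55. Both genes were higher in every GVHD host library, and for Cd274 the adjusted p was 0.167.

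Upstream of these genes, of 21 tested interferon receptors, transcription factors and feedback genes, none was called and 12 had a positive difference, with a median of 0.03. Irf1, a transcription factor of the interferon response, was at 120, 128, 122 and 135 against 82.2, 88.4 and 73.9 (0.65 ± 0.17, adjusted p = 0.195). The groups of Irf1 did not overlap. Of 39 antiviral effector genes of the type I interferon response, none was called and 38 had a positive difference, with a median of 0.47 (0.48 without TCD host library 1). In 10 of the 39 the groups did not overlap, against 3.57% of all tested genes. Without TCD host library 1 this was so in 24 of the 39, against 8.38% of tested genes. Among the 10 were Ifi44 (1.69 ± 0.47, adjusted p = 0.264, and 0.89 without TCD host library 1) and Bst2, a factor that tethers virus particles (0.43 ± 0.13, adjusted p = 0.338).

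**Figure D2:**
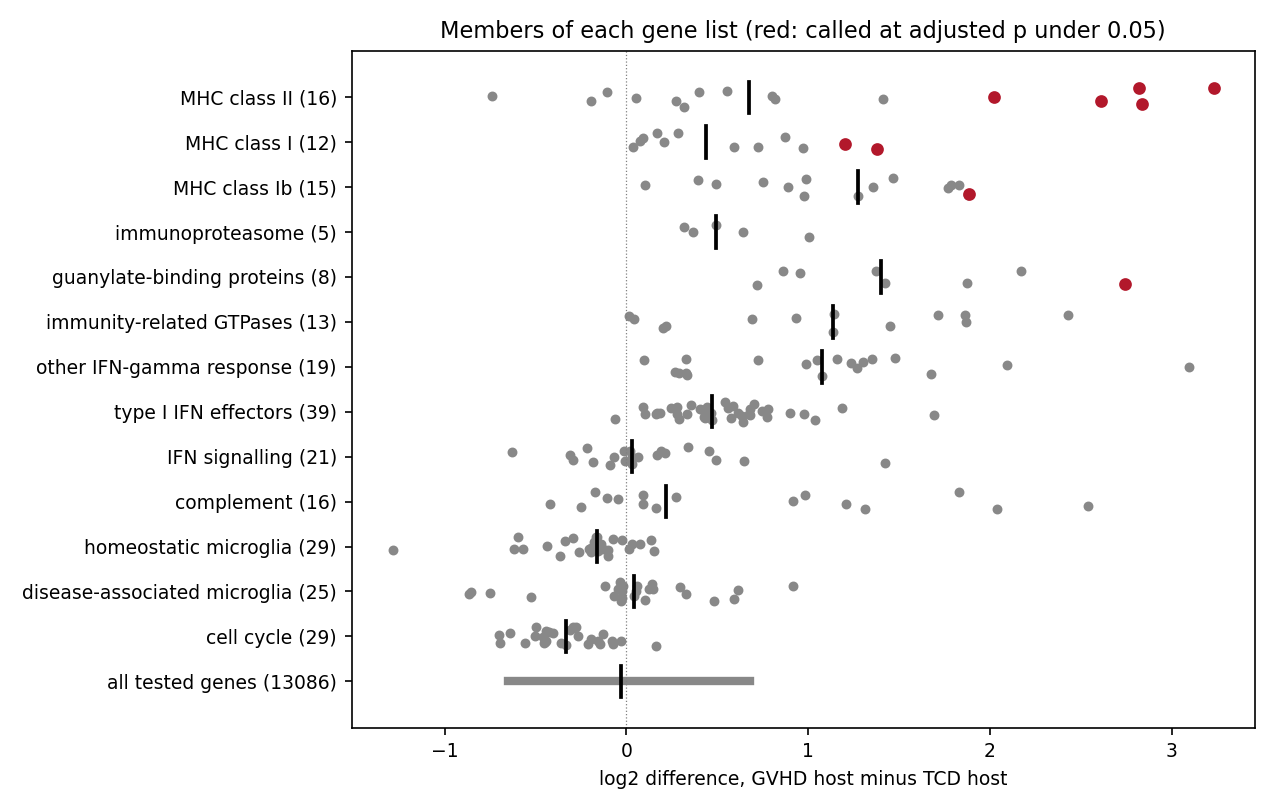
Log2 differences, GVHD host minus TCD host, of the members of 13 gene lists; each point is a gene, black bars are medians, red points are called genes, and the grey bar spans the middle 95% of all tested genes. The medians of the class Ib, guanylate-binding protein, immunity-related GTPase and interferon-gamma lists lie above 1, and that of the cell cycle list is at -0.33.

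Of 16 tested complement genes, none was called and 11 had a positive difference (median 0.22, and 0.33 without TCD host library 1). In 7 of them the groups did not overlap, GVHD host higher, against 3.57% of all tested genes. Serping1, the inhibitor of the first complement component, was at 12.6, 1.52, 1.02 and 2.72 against 0.0865, 0.604 and 0, and C2, of the classical pathway, was at 10.9, 3.92, 4.28 and 8.40 against 3.11, 1.32 and 2.94. GVHD host library 1 was the highest for both. The difference of Serping1 was 1.83 (adjusted p = 0.178), or 1.24 without TCD host library 1 (adjusted p = 0.598). Its estimated reads were 323, 24, 16 and 24 against 2, 10 and 0, so the control values were near the floor. C4b, also of the classical pathway, was at 77.9, 26.4, 11.6 and 26.6 against 38.4, 3.18 and 2.78, so that TCD host library 1 lay above 3 of the 4 GVHD host libraries and the other controls below all of them. Its difference was 2.04 ± 0.48 (adjusted p = 0.161), and 2.17 without TCD host library 1 (adjusted p = 0.402). C1qa and C1qb, which microglia make in bulk, differed by 0.27 and 0.09. Itgax, the integrin CD11c, was at 38.0, 21.7, 17.5 and 23 against 14.3, 12.6 and 11.5, apart but not called (0.92 ± 0.20, adjusted p = 0.138).

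Of 15 genes for co-stimulation and checkpoint ligands, none was called and 12 had a positive difference (median 0.27). Cd40, through which T cells signal to antigen-presenting cells, was at 18.6, 8.22, 11.1 and 6.24 against 2.51, 4.16 and 5.31. Vcam1, an adhesion molecule for leukocytes, was at 230, 100.4, 138 and 163 against 54.2, 82.2 and 84.4. Both were higher in each GVHD host library than in any TCD host library, with adjusted p of 0.370 and 0.285. Their differences were 1.24 and 1.08, and 0.77 and 0.70 without TCD host library 1.

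The remaining called genes lie outside interferon pathways as listed. Cpq (chr15:33083129-33594552, plus strand), a secreted carboxypeptidase, was at 147, 135, 94.8 and 134 against 47.8, 44.6 and 71.7. The groups were apart, with a log2 difference of 1.22 ± 0.17 (adjusted p = 0.0140), and 1.11 without TCD host library 1 (adjusted p = 0.121). Aldh1l1 (chr6:90486427-90600203, plus strand), a folate enzyme widely used as an astrocyte marker, was at 4.95, 4.23, 3.63 and 5.78 against 0.865, 0.724 and 0.483. Spock1 (chr13:57421195-57908332, minus strand), an extracellular proteoglycan, was at 4.21, 2.02, 3.00 and 1.70 against 0.389, 0.422 and 0.362. For both genes every GVHD host library was well above every control. The log2 differences were 1.77 ± 0.22 for Aldh1l1 and 1.41 ± 0.18 for Spock1 (adjusted p = 0.00873 for both), and both passed without TCD host library 1 (1.67 and 1.24, adjusted p = 0.0485). Counts were low: an estimated 127, 67, 57 and 50.9 reads against 20, 12 and 4 for Aldh1l1, and 108, 32, 47 and 15 against 9, 7 and 3 for Spock1. Spock1 was under 1 in every TCD host and donor library and so passed the filter on low values only through the GVHD host group, where it is high. Its call is therefore not independent of the filter, and its adjusted p with no filter was 0.00868.

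Of 10 tested markers of astrocytes and neurons, Aldh1l1 was the 1 called. All 6 tested astrocyte markers had a positive difference (median 0.57) and 2 had groups that did not overlap. The summed level of the astrocyte list was 338 to 448 in the GVHD host libraries and 247 to 301 in the TCD host libraries. Most of that sum came from list members not named here. Mean levels in the GVHD host libraries were only 4.65 for Aldh1l1, 3.18 for Slc1a2, 14.05 for Aldoc and 1.24 for Gja1. The sum therefore says little about these markers, and the groups of Aldoc and Gja1 overlapped. All 4 tested neuron markers had a positive difference (median 0.87) and 3 had groups that did not overlap, against 3.57% of all tested genes. Their sums were 11.9 to 22.2 in the GVHD host and 5.44 to 8.57 in the TCD host libraries. Among the neuron markers Camk2a, a synaptic kinase, was at 6.01, 12.4, 8.48 and 10.4 against 4.02, 3.74 and 4.59 (0.96 ± 0.21, adjusted p = 0.141). Slc1a2, the main glutamate transporter of astrocytes, was at 2.15, 2.46, 4.02 and 4.08 against 0.822, 1.99 and 2.17, and its groups overlapped.  Donor macrophage libraries had a mean Aldh1l1 level of 5.18 and a mean Spock1 level of 0.0983. The part of astrocyte or neuron RNA in the calls of Aldh1l1 and Spock1 was not tested.

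Thbs2 and Serpinf1 were the genes that fell. Thbs2 (chr17:14665500-14694235, minus strand), a matrix glycoprotein of the thrombospondin family, was at 0.780, 2.46, 1.66 and 2.04 in the GVHD host libraries and at 9.60, 7.06 and 5.92 in the TCD host libraries. Serpinf1 (chr11:75409769-75422701, minus strand), which encodes pigment epithelium-derived factor, was at 18.5, 38.7, 40.1 and 35.4 against 44.6, 62.8 and 71.0. GVHD host library 1 was the lowest for both genes. The log2 differences were -1.67 ± 0.23 for Thbs2 (adjusted p = 0.0134) and -0.92 ± 0.15 for Serpinf1 (adjusted p = 0.0389). Without TCD host library 1 Thbs2 was at -1.38 and passed the test (adjusted p = 0.0485), while Serpinf1 was at -0.82 and did not (adjusted p = 0.174).

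The label of host microglia was checked against genes that mark these cells. P2ry12, a purine receptor typical of microglia, was at 11136, 13372, 14144 and 13182 in the GVHD host libraries and at 13428, 14226 and 18980 in the TCD host libraries, against a mean of 1159 in donor macrophages. Sall1, a transcription factor of microglial identity, was at 297, 270, 286 and 263 against 401, 281 and 274, with a donor mean of 9.35. Both were thus high in every host library and far lower in donor cells, as the label has it. Some other microglial genes, given below, set host and donor cells less far apart. Neither P2ry12 nor Sall1 passed the test between the host groups. P2ry12 differed by -0.29 ± 0.17 (adjusted p = 0.820) and Sall1 by -0.16 ± 0.36 (adjusted p = 0.943). Without TCD host library 1 P2ry12 was at -0.20, with groups that did not overlap, GVHD host lower. Sall1 was then at 0.02, and its groups overlapped. The differences of Tmem119 and Cx3cr1 were -0.16 and -0.18, with an adjusted p of 0.907 for both. Without TCD host library 1 they were 0.04 and 0.05. Mean levels of Tmem119 were 4372 in GVHD host, 5141 in TCD host and 1331 in donor libraries. Those of Cx3cr1 were 8260, 9980 and 4291, in the same order.

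Of 29 tested genes of homeostatic microglia, none was called, 24 had a negative difference and the median was -0.16. Without TCD host library 1 the median was 0.01 and 16 of the 29 were positive. With all libraries the groups were apart, GVHD host lower, in 3 of the 29, against 2.98% of all tested genes, and in 0 with it higher. Without TCD host library 1 these counts were 7 and 0. The share of lower genes over all tested genes was not counted for that choice. Fcrls, a microglial Fc receptor-like gene, was at 282, 1128, 1471 and 737 against 3525, 1146 and 1476. The difference was -1.29 ± 0.51 (adjusted p = 0.645), and -0.42 without TCD host library 1. The mean of Fcrls in donor macrophages was 1633, above every GVHD host library and above TCD host libraries 2 and 3. Fcrls thus did not set host cells apart from donor cells. Gpr34, a lysophospholipid receptor, was at 2325, 3122, 3293 and 3260 against 3543, 3659 and 4567, lower in each GVHD host library (-0.44 ± 0.15, adjusted p = 0.497). Since these are levels in sorted bulk RNA, fewer cells expressing a gene and less RNA per cell cannot be told apart.

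Genes of the disease-associated microglia state, seen near plaques and in degeneration, were not called: of 25 tested, 13 had a positive difference and the median was 0.04. With TCD host library 1 left out, 19 of the 25 were positive and the median was 0.12, against 51.1% positive over all tested genes. Cst7, a cystatin and one of its marker genes, was at 40.4, 37.3, 36.2 and 26.7 against 33.0, 27.9 and 34.3. Axl, a receptor for dying cells, was at 173, 78.0, 70.0 and 82.9 against 163, 45.8 and 40.7, where library 1 of each group was high. Lpl, the lipoprotein lipase, was at 17.2, 23.4, 21.9 and 13.8 against 43.3, 42.8 and 24.3 (-0.86 ± 0.35, adjusted p = 0.684). Cd36, a fatty acid and lipoprotein receptor from the lipid list, went the other way at 82.6, 30.9, 19.9 and 27.9 against 9.73, 8.09 and 13.6 (1.68 ± 0.39, adjusted p = 0.161).

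Donor macrophages had far higher class II levels than either host group, so host levels were set beside those of the donor cells. As a percent of the donor mean, the 5 called class II genes stood at 7.41% to 11.9% in GVHD host microglia (gene means over 4 libraries) and at 0.925% to 1.63% in TCD host microglia. Genes that mark marrow-derived macrophages were set beside them in the same libraries. Ms4a7 was at 4.14%, 1.71%, 1.85% and 2.504% of the donor mean in the GVHD host libraries and at 3.98%, 0.795% and 2.82% in the TCD host libraries. Clec12a was at 3.24%, 1.23%, 0.994% and 1.77% against 1.77%, 0.529% and 1.33%. For both markers the host groups overlapped, and the tests gave 0.23 ± 0.38 for Ms4a7 (adjusted p = 0.919) and 0.50 ± 0.33 for Clec12a (adjusted p = 0.831). Itgal, an integrin on leukocytes and another marker of the list, was at 17.5%, 3.64%, 5.71% and 5.21% against 4.82%, 2.37% and 3.17%. Its groups overlapped through TCD host library 1, and the difference was 0.96 ± 0.22 (adjusted p = 0.161). Gbp8 stood at 23% of the donor mean in GVHD host and 2.53% in TCD host microglia, and Nlrc5 at 48.0% and 16.9%.

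**Figure D3:**
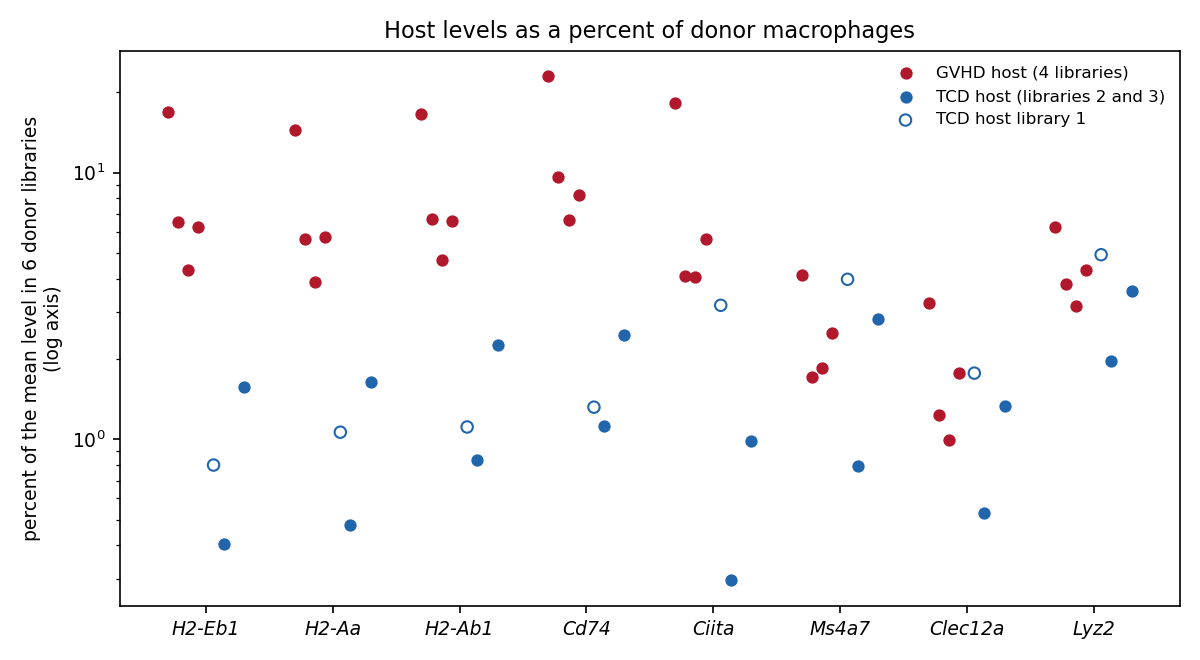
Host library levels as a percent of the mean level in 6 donor macrophage libraries, on a log axis, for 5 class II genes and 3 genes that mark marrow-derived macrophages (Ms4a7, Clec12a and Lyz2). Each point is a host library; the class II genes are apart between the host groups, while the 3 marker genes overlap.

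Over all 19 tested markers of marrow-derived macrophages, none was called, 13 had a positive difference and the median was 0.24 (0.37 without TCD host library 1). At an unadjusted p under 0.05, 4 were higher, Itgal, Plbd1 (1.198), Klra2 (1.14) and Apoe (0.59), and 1 was lower, Igf1 (-0.87). The summed level of the 19 was 4349 to 7519 in the GVHD host libraries, 3224 to 4797 in the TCD host libraries and 77547 to 108446 in the donor libraries. Lyz2, a lysozyme of macrophages, was at 909, 559, 459 and 630 against 717, 285 and 524, and Apoe, a lipid carrier, was at 5591, 2673, 3233 and 3906 against 2974, 1678 and 3165. When the mean donor profile was subtracted from each GVHD host library at its Clec12a level, and nothing from the TCD host libraries, the difference of Cd74 was 2.57 (adjusted p = 0.0180), that of Ciita 1.66 (adjusted p = 0.0122) and that of Gbp8 2.62 (adjusted p = 0.00166). That setting was chosen after seeing the data and assumes that any donor RNA has the mean donor profile and the marker's share; the part of donor RNA in the class II results was not tested. In it, 12 of the 14 calls were kept and H2-Ab1 and H2-M2 were not (adjusted p = 0.0702 for both). Subtracting at the Ms4a7 level kept 10 of the 14 and ended the calls of H2-Eb1 (2.64, adjusted p = 0.0835), H2-Aa (2.15, adjusted p = 0.0982), H2-Ab1 (2.05, adjusted p = 0.108) and H2-M2 (1.54, adjusted p = 0.0982). No subtraction was made at the level of Itgal, whose percents of the donor mean, given above, were higher. H2-Eb1 was near them, at 16.9%, 6.55%, 4.3% and 6.24% in the GVHD host libraries. The median over the 19 markers was 2.11% in GVHD host microglia. Whether the class II calls would hold at the Itgal level was not tested.

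T cell markers were at low levels in the host libraries. Of 13 tested, 12 had a positive difference (median 0.33), and 10 without TCD host library 1 (median 0.16). In none of them were the groups apart with all libraries. The summed level of the T cell list, of which 13 genes were tested and none called, was 49.9, 16.3, 15.1 and 11.8 in the GVHD host libraries and 27.6, 10.7 and 11.4 in the TCD host libraries. Cd3e, a chain of the T cell receptor complex, was at 4.80, 1.26, 0.892 and 1.13 against 1.82, 0.543 and 0.966 (0.52 ± 0.26, adjusted p = 0.774). Library 1 of each group was the highest. The part of T cell RNA in the differences of the interferon-related genes was not tested. Markers of border-associated macrophages, the macrophages of the meninges and vessels, summed to 131 to 221 in the GVHD host libraries, 792 in TCD host library 1 and 132 to 146 in TCD host libraries 2 and 3. Cd163, a haemoglobin scavenger receptor on such cells, was at 0.234, 0.253, 0.765 and 0.113 against 21.7, 2.35 and 0.121, and Lyve1, a hyaluronan receptor, was at 0 in 3 of the 4 GVHD host libraries and at 9.52 in TCD host library 1. The part of these cells in the results for TCD host library 1 was not tested.

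The called genes kept their direction in each choice of libraries, which was nearly certain beforehand because their groups did not overlap. With the API_197 libraries alone, 3 GVHD host against 2 TCD host libraries, the log2 differences were 2.79 for H2-Eb1, 2.28 for Cd74, 1.92 for Ciita, 1.04 for Nlrc5 and -1.30 for Thbs2, none of them past the threshold (adjusted p = 0.195 for H2-Eb1 and 0.0837 for the other 4). The libraries with API_183 are 1 against 1 and allow no test. Their log2 differences were 4.37 for H2-Eb1, 4.12 for Cd74, 3.56 for Gbp8, 2.26 for Ciita and 2.16 for Nlrc5. Each of these was larger than the value within the API_197 libraries.

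**Figure D4:**
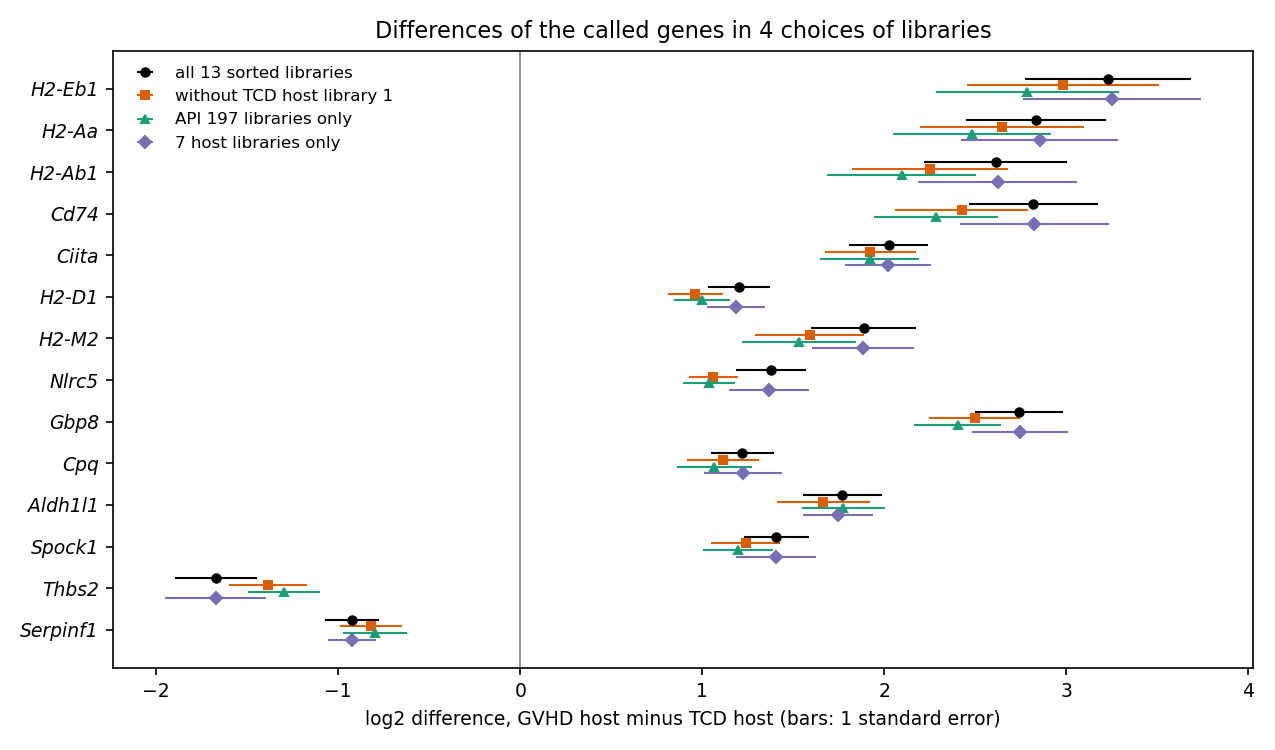
Log2 differences, GVHD host minus TCD host, of the 14 called genes with bars of 1 standard error, from limma fits of all 13 sorted libraries, of those without TCD host library 1, of the API_197 libraries alone and of the 7 host libraries alone. All 12 genes that rose stay above 0 and both that fell stay below 0 in the 4 fits. Their groups do not overlap, so a change of sign was unlikely in any fit.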

How the data were processed

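The sorted-cell table deposited by the authors holds normalised counts, a signal per gene that is neither whole counts nor a stated unit. It was made on the genome build GRCm38 and, per the submitters' processing notes, with RSEM 1.2.30, STAR 2.5.2a and cutadapt 1.9, and the scaling method is not given in the sources used here. Per the labels' protocols, column kits were used to isolate RNA, and Illumina methods to make stranded libraries. The table lists 13783 genes for 13 libraries. Not enough values were whole multiples of the smallest step in a library, so no count test was run; the step, taken as 1 read, gave the estimated reads. Genes were matched by identifier to GENCODE annotation of GRCm38, where 213 had no symbol.

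Values were transformed as log2(value + 1), and genes at 1 or more in at least 3 libraries were tested (13086). One linear model over 13 libraries (6 donor, 4 GVHD host, 3 TCD host), with group and API number as terms, was fitted in R 4.3.3 (limma 3.58.1, trend of the variance with the mean, two-sided tests). P-values were adjusted by Benjamini-Hochberg over all tested genes, and genes under 0.05 were called. Fold changes on this scale understate the change of low genes. An exact two-sided permutation test of 4 against 3 libraries has 35 splits and cannot go below p = 0.0571, so it was not used. The script was tested on simulated data. Alternatives were other pseudocounts (0.1 and 5), filters, scalings, variance models, a minimum fold of 1.5, other sets of libraries, each library left out, the replicate number as a block, and subtraction of the donor profile.

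Named genes were Cd74, H2-Eb1, Ciita, Gbp8 and Nlrc5, up to 12 called genes in each direction, the 4 members of lowest p in each list described, and a fixed set for class I and II, interferon, microglia and macrophages. Any other gene was picked as an example with its values known. The members, the 46 gene lists and the rules were chosen with earlier results of these data known. The hippocampus libraries were not used here. Results for a few of the named genes are not reported here.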

Additional observations from a re-analysis of the deposited data

Results flagged for a closer look

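For 102 named genes, 118 checks asked whether the highest or lowest library of a group stood far from the others. The groups were the 4 GVHD host and the 6 donor libraries, and only part of the genes was checked in the donor group. The measure is the gap to the nearest library divided by the range of the group, and the limit is Dixon's 95% critical value. Chance passes about 1 in 20 such checks, and 26 of 118 passed, 22 of them in the GVHD host group. In 18 of those 22, the library that stood out was GVHD host library 1, on the high side. Since these genes vary together and many were chosen for a difference between the groups, the 26 are not separate events.

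Among called genes, GVHD host library 1 was high for Ciita (gap share 0.888), Gbp8 (0.871), Nlrc5 (0.938), H2-Ab1 (0.831) and H2-M2 (0.8294). Of interferon-related genes that were not called, it was high for Cxcl9 (0.934), H2-T23 (0.907), Iigp1 (0.891), F830016B08Rik (0.878), Tgtp2 (0.848), Ifi44 (0.873) and Cd274 (0.970), and of others for Axl (0.874), Serping1 (0.853) and Itgal (0.850). T cell genes stood out in the same library, which was high for Cd3e (0.905), Trac (0.895) and Lck (0.926). Its T cell marker sum of 49.9 is the highest of the host libraries, and the part of T cell RNA in the high interferon-related values of this library was not tested.

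Other GVHD host libraries stood out for 4 genes. Library 4 was low for Cd68, a lysosomal glycoprotein (0.833), library 3 was high for Cdkn1a, a cell cycle inhibitor (0.854), and library 2 was low for Ei24 (0.834). Lyve1 was above 0 in library 2 alone, at 0.0632, the value of 1 read (gap share 1). Among the genes checked in the donor group, library 1, which is also of API_183, was high for Ciita (0.823), Nlrc5 (0.854), Aldh1l1 (0.693) and Spock1 (0.755). Cd3e and Trac were not checked there. In donor library 1 the T cell marker sum was 64.8, against 6.11 to 19.1 in the other donor libraries, and Cd3e was at 5.65.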

How the results depend on the processing

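The counts of 12 genes higher and 2 lower became, in that order, 16 and 1 with a pseudocount of 0.1, 14 and 5 with a pseudocount of 5, and 25 and 3 with array weights. They were 1 and 0 against a minimum fold of 1.5, 0 and 0 with the 7 host libraries only, 9 and 1 without the API covariate, 1 and 0 with the API_197 libraries only, and 2 and 0 with 6 host libraries after TCD host library 1 was also left out. Leaving out 1 library at a time gave 5 to 23 higher and 0 to 5 lower. With the donor profile subtracted, 10 and 4 genes were called by the Clec12a level and 8 and 6 by the Ms4a7 level. Subtraction turned the direction of the subtracted genes themselves, by construction: Clec12a to -2.14 in both settings and Ms4a7 to -4.24. With the replicate number as a block in place of the API number, 2 genes were higher and 0 lower (Ciita and Gbp8). The correlations of deviations between same-numbered GVHD host and TCD host libraries were 0.222, -0.0157 and -0.0170. Between those of different numbers they ran from -0.283 to 0.290. Donor and host libraries were not compared in this way. Whether any of them came from the same GVHD brain is not given, and the main fit took all 13 libraries as independent. No filter, a filter at 5, equal totals, quantile normalisation, no variance trend and robust estimation gave counts within 1.5 times. A change of sign was unlikely from the start, as the host groups did not overlap in any called gene. All 14 called genes kept their sign in every alternative that tested them. Of their 335 values in alternatives, 120 were not past the threshold, from all 14 genes; Gbp8 passed in 23 of 24 and H2-M2 in 10 of 24. Why the calls were lost was not tested. The lowest depth, 7901523 reads, limits genes such as Spock1, at 3 estimated reads in TCD host library 3.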

Other observations

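None of the 29 tested genes of the cell cycle and replication was called, 28 had a negative difference, and the median was -0.33 (-0.25 without TCD host library 1, with 4 of 29 positive). Their summed level overlapped, at 713 to 991 in the GVHD host libraries and 823 to 888 in the TCD host libraries. Mki67, a marker of dividing cells, was at 11.1, 13.3, 12.6 and 5.79 in the GVHD host libraries and at 16.2, 14.2 and 12.2 in the TCD host libraries, and the groups overlapped. The groups were apart, GVHD host lower, in 1 of the 29, against 2.98% of all tested genes. That gene was Bub1, a kinase of the spindle checkpoint, at 0.897, 2.15, 2.74 and 1.13 against 3.29, 3.56 and 2.90 (-0.70 ± 0.29, limma adjusted p = 0.679).

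Of 31 tested genes of oxidative phosphorylation, none was called and 30 had a positive difference, with a median of 0.23 (0.24 without TCD host library 1). The mitochondrially encoded mt-Nd5 of complex I differed by 0.64 (adjusted p = 0.242). The share of mitochondrially encoded transcripts was 0.839%, 1.39%, 1.11% and 1.17% of the normalised counts in the GVHD host libraries and 0.687%, 0.805% and 1.10% in the TCD host libraries. Of 19 targets of p53, none was called and 7 had a positive difference (10 without TCD host library 1). Cdkn1a was at 406, 525, 1359 and 546 against 437, 745 and 875, and its groups overlapped.

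Markers of natural killer and cytotoxic cells summed to 26.2, 19.5, 12.7 and 11.9 in the GVHD host libraries and to 8.39, 9.60 and 10.9 in the TCD host libraries. Of the 6 tested, none was called and 5 had a positive difference (median 0.72, and 0.48 without TCD host library 1), against 44.9% of all tested genes. In 3 of them the groups did not overlap, GVHD host higher, against 3.57% of all tested genes. Klrb1c, a natural killer cell receptor, differed by 0.90 ± 0.26 (adjusted p = 0.312). Neutrophil markers summed to 118 in TCD host library 1 and to 1.72 to 22.4 in the other 6 host libraries.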
